A study of Mus musculus with 8 samples.

Results

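The 8 genes described here act in meiotic recombination: *Spo11*, *Prdm9*, *Dmc1*, *Mnd1*, *Msh4*, *Msh5*, *Mlh3* and *Hfm1*. They were taken by name, and all 8 were found among the 23343 genes of the RNA tables. RNA was measured in cells of the pachytene stage of meiosis, pachytene spermatocytes (PS), and in the haploid cells that follow them, round spermatids (RS), taken from adult C57BL/6 mice whose genotype is given as Rnf8- and Scml2-dKO, so both cell types carry both deletions (*Rnf8;Scml2*-dKO). Acetylation of histone H3 at lysine 27 (H3K27ac), a mark of active promoters and enhancers, was measured by ChIP-seq in PS and RS of adult wild type C57BL/6 mice. Each of the 4 groups had 2 replicates, 8 samples in all. RNA and H3K27ac therefore come from different mice of different genotypes, and no gene could be followed in both assays within 1 genotype. The cells were separated by size through gravity sedimentation on a gradient of albumin, and PS and RS of the double mutant were prepared on a small scale from single males. The double mutant males are infertile and have small testes, so the spermatids measured are those such a testis still makes.

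Meiotic recombination begins when SPO11 cuts both DNA strands, at places marked by the histone methyltransferase PRDM9 in the mouse. The strand exchange protein DMC1, helped by the HOP2–MND1 complex, pairs the cut end with the homologous chromosome. MSH4 with MSH5 and the helicase HFM1 then stabilise some of these joints, and the endonuclease that contains MLH3 resolves them into crossovers at the end of pachytene. Breaks are made early in meiotic prophase, before the pachytene stage, and round spermatids have finished both divisions.

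The RNA libraries held 9655405 to 12289694 reads on genes, of which 3943 and 3614 fell on the 8 genes in PS and 2036 and 1850 in RS, replicate 1 given first throughout. Replicates differed by more than the sampling noise of their counts. *Rnf8* was read 93 and 110 times in PS and 61 and 50 times in RS, and *Scml2* 40 and 92 times in PS and 44 and 98 times in RS. No wild-type RNA was analysed here, so these reads do not check the deletions. The H3K27ac lists held 41095 and 49434 intervals for PS and 74919 and 45863 for RS. Of these, 16 and 20 belonged to the 8 genes in PS and 38 and 24 in RS, and RS replicate 1 stood apart with the most in both counts.

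Markers of the cell types were read as fixed lists. RNA of the 10 round spermatid markers summed to 513 and 862 RPKM (reads scaled to transcript length and library size) in PS and 14042 and 14900 RPKM in RS, and all 10 were higher in RS. The 10 pachytene markers summed to 5791 and 5839 RPKM in PS and to 3787 and 3690 RPKM in RS, with 6 lower in RS. The 8 markers of spermatogonia and preleptotene cells summed to 56.0 and 40.8 RPKM in PS and 70.7 and 71.6 RPKM in RS, and 2 of them were higher in RS. *Dazl*, which did not pass, gave the largest part of that sum, 29.5 and 21.7 RPKM in PS and 34.6 and 39.3 RPKM in RS. All 5 Leydig cell markers were lower in RS: they summed to 727 and 546 RPKM in PS and to 68.0 and 42.4 RPKM in RS, and *Insl3* gave most of the sum. The 6 Sertoli markers summed to between 17.9 and 60.9 RPKM over the 4 libraries, with 2 of the 4 tested higher in RS and *Amh* at 0 reads in RS replicate 1. *Clu*, which did not pass, gave most of the Sertoli sum. The 3 peritubular markers summed to between 2.00 and 3.22 RPKM, with none called.

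Promoter sequences are shown for 3 genes whose start sites differed most between PS and RS in H3K27ac: *Mlh3*, *Dmc1* and *Prdm9*. Each is the stretch of 250 bases before a RefSeq start site in the mouse genome build GRCm38 (mm10), read 5′ to 3′ on the strand of the gene, the minus strand in all 3. Capitals mark matches on either strand to CNCCTCAG, a motif reported for the meiotic initiator STRA8, to TAACNG or CAACNG, the core bound by MYB proteins such as the pachytene regulator A-MYB, and to TGACG, part of the cyclic AMP response element TGACGTCA. The *Mlh3* window is chr12:85270600-85270849, the *Dmc1* window chr15:79605110-79605359 and the *Prdm9* window chr17:15564355-15564604, before the more distal of 2 RefSeq starts of *Prdm9*.
Mlh3: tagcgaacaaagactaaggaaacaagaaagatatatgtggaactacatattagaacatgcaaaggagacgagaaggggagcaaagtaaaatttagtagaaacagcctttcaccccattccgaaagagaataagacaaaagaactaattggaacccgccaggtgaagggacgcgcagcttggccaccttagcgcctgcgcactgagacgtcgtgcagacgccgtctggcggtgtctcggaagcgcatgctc
Dmc1: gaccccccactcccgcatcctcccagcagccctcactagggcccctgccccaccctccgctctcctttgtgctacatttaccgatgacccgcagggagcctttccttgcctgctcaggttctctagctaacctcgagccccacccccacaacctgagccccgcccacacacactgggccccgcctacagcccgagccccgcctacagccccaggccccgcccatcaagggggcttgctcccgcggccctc
Prdm9: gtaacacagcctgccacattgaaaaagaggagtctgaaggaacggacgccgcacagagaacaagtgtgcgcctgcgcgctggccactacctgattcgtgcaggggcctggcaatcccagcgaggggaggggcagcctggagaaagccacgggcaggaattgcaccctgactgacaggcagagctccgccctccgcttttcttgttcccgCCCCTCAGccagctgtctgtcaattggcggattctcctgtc
The *Mlh3* and *Dmc1* windows held none of these letters, and the *Prdm9* window held the STRA8-associated motif once. The RefSeq table had windows for 7 of the 8 genes and not for *Spo11*. These 7 genes had 9 windows, and a gene was counted when any of its windows held the motif. The shares over all promoters are counted per window, so gene counts and window shares are in different units. The STRA8-associated motif was found in 3 of the 7, *Prdm9*, *Hfm1* and *Msh5*, and in 6.42% of the 32851 windows of all promoters. The E2F motif GCGGGAA was found in 2, *Prdm9* and *Msh5*, against 3.82% of all windows, and the MYB core in 3, *Prdm9* (before its proximal start), *Msh4* (before a RefSeq start that lies 1247 bp inside the gene from the start used for RNA and H3K27ac) and *Msh5*, against 43.1%. CCAAT was found in 3 against 33.8%, and TGACG in 2 against 17.8%. The whole element TGACGTCA and the RFX motif GTTGCC were found in none of the 7, against 1.55% and 10.4% of all windows. The *Msh5* window held 5 of the 7 motifs, the most of any.

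For RNA, a gene was called when edgeR's quasi-likelihood test gave a Benjamini-Hochberg adjusted p below 0.05 and a change over 1.5-fold. By this rule 3 of the 8 genes fell from PS to RS (*Mlh3*, *Spo11* and *Hfm1*) and 2 rose (*Dmc1* and *Prdm9*), while *Msh4*, *Msh5* and *Mnd1* did not pass. Among all 14647 genes tested, 27.6% were lower and 30.4% higher in RS, so calls in both directions were common in this comparison. The median log2 difference of the 8 genes was -0.15, against 0.01 over all genes. All 5 Leydig markers fell with *Mlh3*, *Spo11* and *Hfm1*, as did 6 of the 10 pachytene markers, and the summed markers of spermatogonia and preleptotene cells were higher in both RS libraries, as were *Dmc1* and *Prdm9*; the part of such cells in these differences was not tested. In bulk cells, fewer cells of a type and less RNA per cell cannot be told apart.

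*Spo11*, which makes the breaks, had the most RNA of the 8 per length in both cell types. It stood at 61.7 and 72.9 RPKM in PS and at 27.7 and 26.1 RPKM in RS (1140, 1309, 627 and 500 reads). Both RS libraries lay below both PS libraries. The log2 difference of RS minus PS was -1.28 ± 0.15 (SE, n = 2 each), a 2.43-fold fall, with an edgeR adjusted p of 0.000124.

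*Prdm9*, which places the breaks, was near the bottom of the range. It stood at 0.862 and 1.46 RPKM in PS and at 1.88 and 2.36 RPKM in RS, from 34, 56, 91 and 96 reads. Both RS libraries were above both PS libraries, though the nearest pair was close. The log2 difference was 0.90 ± 0.32 (SE), an edgeR adjusted p of 0.0348. The call was lost with DESeq2 (adjusted p = 0.0746) and without PS replicate 1, RS replicate 1 or RS replicate 2 (edgeR adjusted p = 0.122, 0.0503 and 0.162).

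Of the strand exchange genes, *Dmc1* rose. It stood at 3.28 and 3.93 RPKM in PS and at 9.69 and 9.41 RPKM in RS, from 82, 95, 300 and 245 reads. The replicates of each cell type were close and the groups far apart. The log2 difference was 1.46 ± 0.20 (SE), a 2.76-fold rise with an edgeR adjusted p of 0.000309. In PS its values overlapped those of *Msh4*, and in RS it was second to *Spo11*.

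*Mnd1*, whose product acts on DMC1, had only 22 and 8 reads in PS and 25 and 27 reads in RS. Per length this was 2.21 and 0.824 RPKM in PS and 2.04 and 2.62 RPKM in RS. The groups overlapped, since PS replicate 1 lay between the RS libraries. The log2 difference was 0.65 ± 0.48 (SE), edgeR adjusted p = 0.262, and the range of 2 SE either side ran from -0.31 to 1.62, so a rise of the size seen for *Dmc1* was within it. Without PS replicate 1 it was called higher at 1.48 (edgeR adjusted p = 0.0207).

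Of the crossover genes, *Mlh3* changed most. It stood at 20.999 and 18.04 RPKM in PS and at 3.04 and 3.64 RPKM in RS, from 1299, 1088, 231 and 233 reads. The PS and RS libraries did not come near each other. The log2 difference was -2.51 ± 0.16 (SE), a 5.68-fold fall with an edgeR adjusted p of 5.65e-06.

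*Hfm1*, the crossover helicase, stood at 18.6 and 13.3 RPKM in PS and at 6.26 and 7.43 RPKM in RS (1046, 743, 434 and 433 reads). Both RS libraries were below both PS libraries, and the PS replicates differed from each other more than the RS replicates did. The log2 difference was -1.18 ± 0.18 (SE), a 2.27-fold fall with an edgeR adjusted p of 0.000515.

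The partners *Msh4* and *Msh5* moved little. *Msh4* had 147 and 147 reads in PS and 130 and 131 in RS, or 3.88 and 3.98 RPKM against 2.79 and 3.34 RPKM. The groups did not overlap, but the log2 difference of -0.32 ± 0.20 (SE) did not pass (edgeR adjusted p = 0.199), and 2 SE either side spanned -0.73 to 0.09. *Msh5* had 173 and 168 reads in PS and 198 and 185 in RS, or 5.32 and 5.49 RPKM against 4.95 and 5.78 RPKM, and its groups overlapped. Its log2 difference was 0.02 ± 0.18 (SE), edgeR adjusted p = 0.937, with 2 SE either side from -0.35 to 0.38, and its sign changed with the scaling. The tables split *Msh5* over 2 isoform rows: NM_001146215 held 0 and 84 reads in PS and 0 and 128 in RS, and NM_013600 held 173, 84, 198 and 57. The isoforms differed more between replicates than between cell types, and only their sum is used.

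Over the 8 genes, the RPKM of 6 did not overlap between the cell types. In all genes tested, 42.7% had both RS values below both PS values and 40.9% had both above. An exact permutation test of 2 against 2 cannot give a p below 0.333, so single genes were tested only in the fits across all genes. In PS the order of mean RPKM was *Spo11*, *Mlh3*, *Hfm1*, *Msh5*, *Msh4*, *Dmc1*, *Mnd1* and *Prdm9*, where *Mlh3* and *Hfm1*, *Msh4* and *Dmc1*, and *Mnd1* and *Prdm9* overlapped their neighbour. In RS it was *Spo11*, *Dmc1*, *Hfm1*, *Msh5*, *Mlh3*, *Msh4*, *Mnd1* and *Prdm9*, where *Mlh3* and *Msh4* and *Mnd1* and *Prdm9* overlapped. Outside the recombination list, the genes closest to the median profile of the 8 over the 4 RNA libraries were *Sipa1l3*, *Ythdf3* and *Tmem39a*, at Euclidean distances of 0.103, 0.161 and 0.170 in log2(RPKM + 1) among 14607 genes compared.

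**Figure D1:**
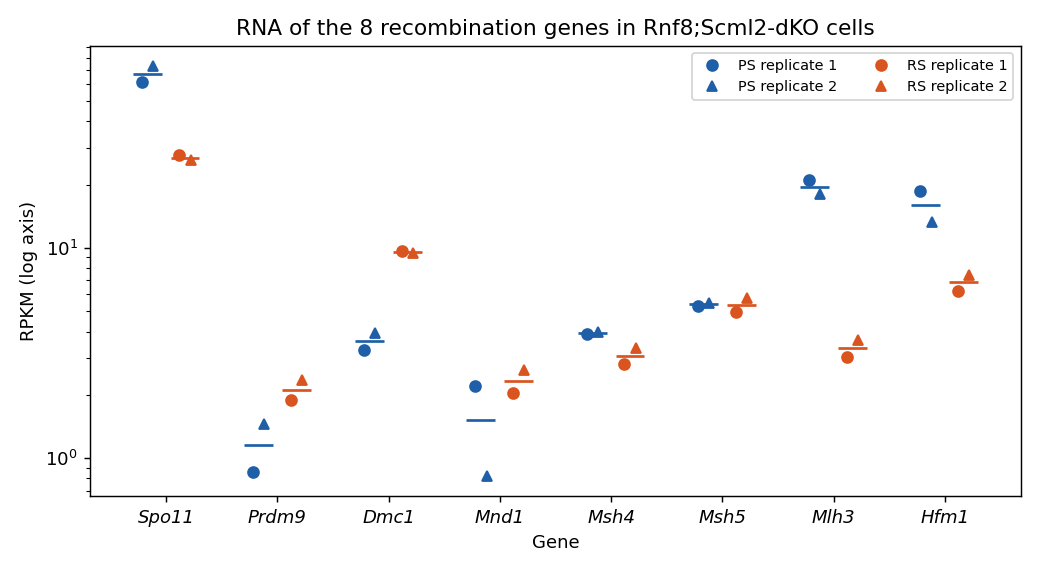
RPKM (log axis) of each gene in the 4 *Rnf8;Scml2*-dKO libraries, PS in blue and RS in orange, with circles for replicate 1, triangles for replicate 2 and lines for the mean of the 2. *Mlh3* falls from 20.999 and 18.04 in PS to 3.04 and 3.64 in RS, *Dmc1* rises from 3.28 and 3.93 to 9.69 and 9.41, and *Msh5* and *Mnd1* overlap.

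The same comparison was read across 40 recombination genes found in the tables, the 8 included, grouped by role. The list was drawn up with 44 genes, of which 4 (*Ankrd31*, *Shoc1*, *Spo16* and *Rnf212*) were not matched. For the counts that follow, the shares over all genes tested were 27.6% lower and 30.4% higher in RS. Of the 32 genes besides the 8, 15 were lower and 3 higher in RS, with a median log2 difference of -0.55. The 9 genes of break formation had 2 lower, 1 higher and 6 that did not pass, and a median log2 difference of 0.24. The 17 of strand exchange had 9 lower, 3 higher and 5 that did not pass, with a median of -0.72. The 14 of crossover formation had 7 lower, 1 higher and 6 that did not pass, with a median of -0.65.

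Among the break genes, *Iho1* (in the files as *Ccdc36*), whose product binds unpaired chromosome axes, fell with *Spo11*. It stood at 16.8 and 16.0 RPKM in PS and at 4.02 and 4.24 RPKM in RS, a log2 difference of -1.95 ± 0.16 (SE). *Prdm9* was the single break gene called higher.

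In strand exchange, the largest falls were those of *Fignl1*, which takes strand exchange filaments apart, *Xrcc3*, a gene of homologous repair, and *Spata22*, the partner of the single-strand binding protein MEIOB. *Fignl1* stood at 53.3 and 39.8 RPKM in PS and at 8.08 and 8.48 RPKM in RS (log2 difference -2.45 ± 0.17). *Xrcc3* and *Spata22* had log2 differences of -1.73 ± 0.29 and -1.69 ± 0.29. *Dmc1* thus rose while most genes of its role fell. The other rises were those of *Rad51ap2*, from 0.442 and 0.255 RPKM to 1.15 and 1.58 RPKM (1.99 ± 0.39), and of *Mcm8*, a helicase of homologous repair (0.99 ± 0.21).

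In crossover formation, *Mlh3* was followed by *Ccnb1ip1*, the ubiquitin ligase HEI10 that marks crossover sites, and *Eme1*, the partner of the nuclease MUS81. *Ccnb1ip1* stood at 9.31 and 5.85 RPKM in PS and at 1.56 and 1.41 RPKM in RS (log2 difference -2.30 ± 0.31), and *Eme1* at 4.70 and 5.09 RPKM against 1.38 and 1.17 RPKM (-1.90 ± 0.25). The single rise was that of *Tex11*, an X-linked crossover gene, from 4.75 and 3.07 RPKM to 8.33 and 8.23 RPKM (1.13 ± 0.22). All the genes named in these groups as lower or higher had an edgeR adjusted p of 0.0348 or less over all genes.

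**Figure D2:**
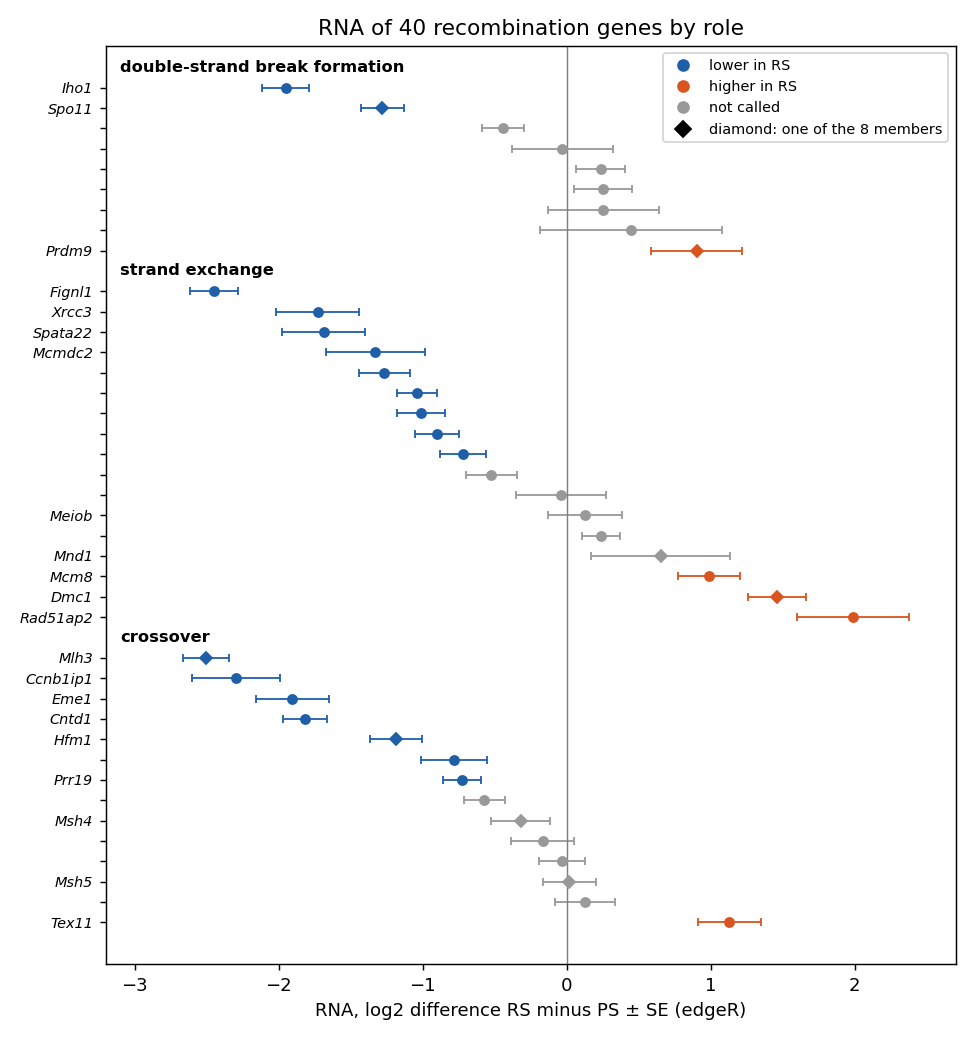
Log2 difference in RNA of RS minus PS with its SE for the 40 recombination genes, sorted within 3 roles, with the 8 genes as diamonds and names given for the genes named in the text. Blue marks genes lower in RS, orange genes higher and grey those that did not pass; *Mlh3* (-2.51) lies at the bottom of the crossover group's range and *Dmc1* (1.46) near the top of the strand exchange group's.

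H3K27ac was read as the fold enrichment of the strongest interval within 2 kb of a start site, which is the fragment pileup over the background of the same library after 1 is added to both. All 8 genes had an interval in all 4 libraries, as did 48.8% of the 23343 genes. The summits lay within 662 bp of the start except at *Prdm9*, where the PS summits lay at -1302 and -1339 bp from the start used in the RNA tables, upstream of it and near the distal RefSeq start. In RS the strongest *Prdm9* summits lay at -764 and -745 bp, between both starts. The limma fit across 13699 start sites called 1 of the 8 genes lower in RS, *Mlh3*, and none higher. Over all start sites 11.3% were called lower and 4.56% higher. At an unadjusted p below 0.05 the fit had 3 of the 8, *Mlh3* and *Prdm9* lower and *Dmc1* higher, where 30% of all start sites were lower and 8.53% higher at that threshold. The median log2 difference over all start sites was -0.43, and that of the 8 genes was -0.22. Values relative to that general shift are given beside the raw ones.

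*Mlh3* reached a fold enrichment of 25.9 and 26.9 in PS and of 9.36 and 7.55 in RS. The groups were far apart and the replicates close. The log2 difference in 1 + fold enrichment was -1.54 ± 0.19 (SE, n = 2 each), limma adjusted p = 0.0183, which is -1.11 relative to the median start site. The call was lost with pileup in place of fold enrichment (adjusted p = 0.188), in a window of 5 kb (0.0782) and without PS replicate 1 or 2 (0.0917 and 0.120), while the difference stayed between -1.07 and -1.68. *Mlh3* was the single gene of the 8 called in the same direction in both assays.

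*Dmc1* reached a fold enrichment of 6.996 and 6.03 in PS and of 13.02 and 10.4 in RS. It was the single gene of the 8 with both RS values above both PS values, which 14.6% of all start sites showed. The log2 difference of 0.76 ± 0.20 (SE) did not pass (limma adjusted p = 0.0781). Relative to the median start site it was 1.19, and with each library centred on its median it was called higher (limma adjusted p = 0.0195).

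*Prdm9* reached a fold enrichment of 16.5 and 15.3 in PS and of 9.76 and 8.13 in RS, with no overlap. The log2 difference of -0.77 ± 0.18 (SE) did not pass (limma adjusted p = 0.0649) and was -0.34 relative to the median. Without RS replicate 1 it was called lower (limma adjusted p = 0.0214). RNA and H3K27ac of *Prdm9* thus had opposite signs.

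*Spo11* and *Hfm1*, lower in RNA, showed no called difference in H3K27ac. *Spo11* reached a fold enrichment of 26.3 and 27.4 in PS and of 27.3 and 21.5 in RS, with RS replicate 1 between the PS values, and a log2 difference of -0.14 ± 0.20 (SE; limma adjusted p = 0.608). *Hfm1* had 19.8 and 26.3 in PS and 22.0 and 16.8 in RS, also overlapping, with a log2 difference of -0.23 ± 0.25 (SE; limma adjusted p = 0.504). Relative to the median start site these were 0.29 and 0.20, so their sign turned with centring.

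*Msh5* reached a fold enrichment of 20.99 and 23.02 in PS and of 17.9 and 12.8 in RS, a log2 difference of -0.51 ± 0.23 (SE; limma adjusted p = 0.186) that was -0.08 relative to the median and was called lower without RS replicate 1 (limma adjusted p = 0.0328). *Msh4* had 12.8 and 14.3 in PS and 12.6 and 10.4 in RS, a log2 difference of -0.21 ± 0.19 (SE; limma adjusted p = 0.429) that was 0.22 relative to the median. *Mnd1*, with little RNA, also had a low fold enrichment, 7.41 and 6.03 in PS and 7.73 and 6.97 in RS (0.12 ± 0.19; limma adjusted p = 0.664). In 4 of the 8 genes both RS values were below both PS values, which 58.1% of all start sites showed.

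**Figure D3:**
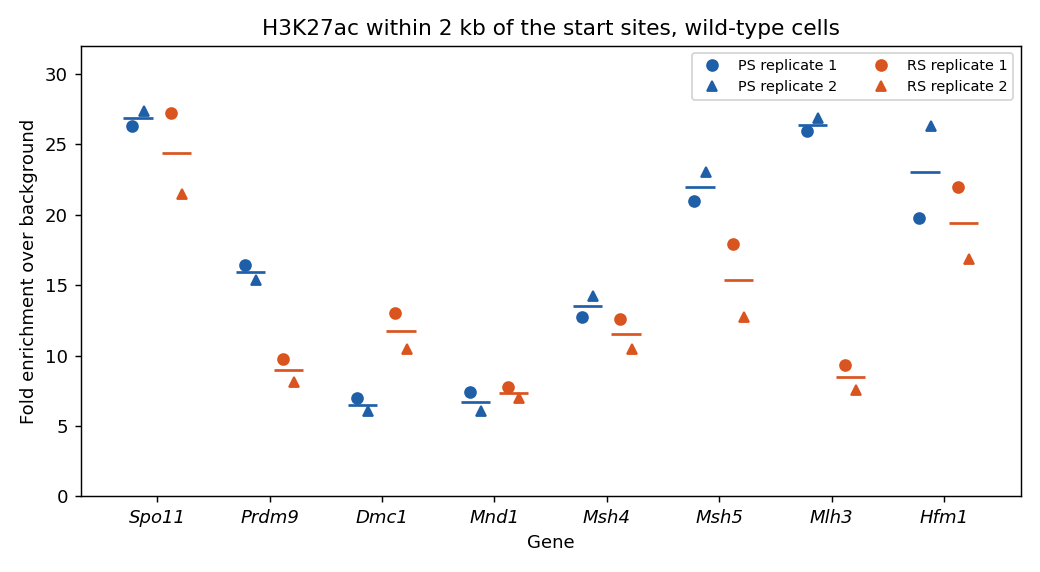
Fold enrichment of H3K27ac over the background of the library at the strongest interval within 2 kb of each start site in wild type PS (blue) and RS (orange), with circles for replicate 1, triangles for replicate 2 and lines for the mean of the 2. *Mlh3* drops from 25.9 and 26.9 to 9.36 and 7.55, *Dmc1* rises from 6.996 and 6.03 to 13.02 and 10.4, and *Spo11* and *Hfm1* overlap.

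Set side by side, the RNA and H3K27ac differences had the same sign in 6 of the 8 genes, and in 3 of the 8 once H3K27ac was taken relative to the median start site. The share of all genes with the same sign was not computed. Several of these signs rest on differences smaller than their SE, that of *Msh5* in RNA and those of *Spo11*, *Hfm1* and *Mnd1* in H3K27ac. *Mlh3*, *Dmc1* and *Mnd1* kept the same sign in both readings, though *Mnd1* passed in neither assay and *Dmc1* in RNA alone. In the wider list, H3K27ac at the start site was called lower for 5 of the 40 genes and higher for 1. Of all start sites tested, 11.3% and 4.56% were so called. The lower ones were *Mlh3*, *Meiob*, *Mcmdc2*, *Cntd1* and *Prr19*. In RNA, *Mlh3*, *Mcmdc2*, *Cntd1* and *Prr19* were also called lower (log2 differences -2.51, -1.33, -1.82 and -0.73), while *Meiob* did not pass (0.13). The higher one was *Iho1*, which had no interval in either PS library and a fold enrichment of 17.1 and 4.64 in RS while its RNA fell.

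**Figure D4:**
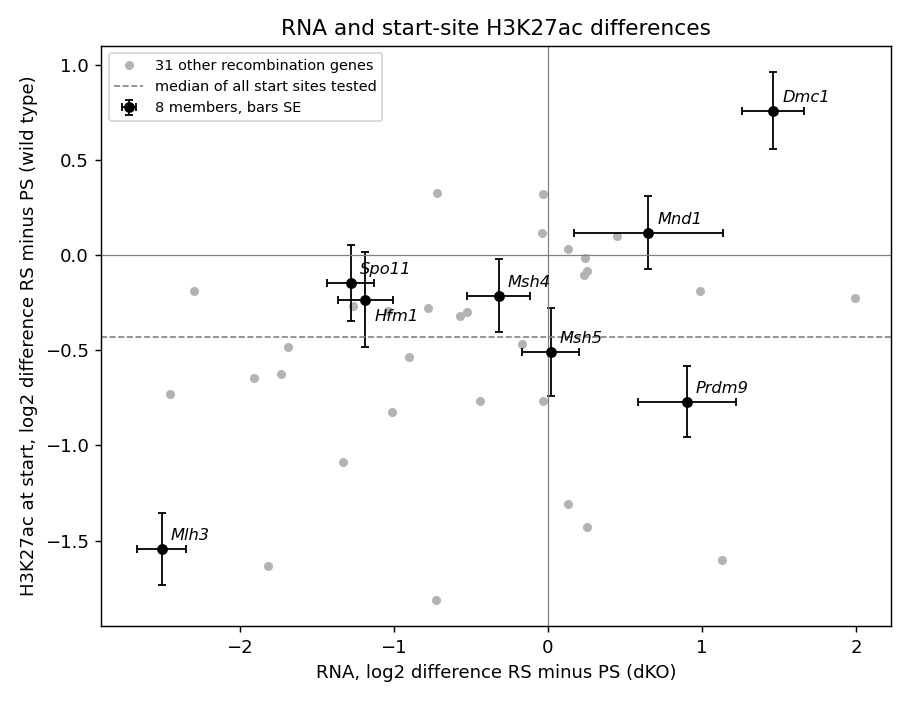
Log2 difference of RS minus PS in RNA of *Rnf8;Scml2*-dKO cells (horizontal) and in start-site H3K27ac of wild type cells (vertical) for the 8 genes with their SE (black) and 31 other recombination genes (grey), with *Iho1* outside the axis. *Mlh3* (-2.51 and -1.54) sits at the lower left, *Dmc1* (1.46 and 0.76) at the upper right and *Prdm9* (0.90 and -0.77) at the lower right, and the dashed line is the median of all start sites (-0.43).

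H3K27ac was also read away from the start sites, in intervals merged over the 4 libraries. The 8 genes had 41 merged intervals, of which 23 were in 1 library, 18 of these in RS replicate 1, and 18 were in at least 2. Of these 18, 5 were called in both RS libraries and neither PS library, and 0 in both PS libraries and neither RS library. Over all 38435 merged intervals in at least 2 libraries, 19.6% were in both RS and neither PS library. The share in both PS and neither RS library is not reported here, so the 0 cannot be compared with it.

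The 5 intervals that appeared in RS lay at 2 genes. *Hfm1* had 4 of them, 2 inside the gene and 2 upstream of it. The inner ones, chr5:106920982-106922065 and chr5:106919724-106920692, had summits 4649 and 5442 bp inside the gene, in intronic sequence by GENCODE, and fold enrichments of 9.76 and 8.71, and of 8.95 and 6.97, in RS replicates 1 and 2. The upstream ones, chr5:106931419-106931833 and chr5:106932271-106932740, were intergenic, with 7.32 and 4.64, and 4.48 and 5.22. No PS library had an interval there, although *Hfm1* RNA was higher in PS of the double mutant. The other was chr3:84073767-84075075 downstream of *Mnd1*, with 6.10 and 4.06 in RS.

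Intervals present in all 4 libraries were compared by limma over 16460 such intervals, a fit that was added after the data were seen. It called 31.2% of all intervals lower and 25.7% higher in RS and gave each the same SE, 0.242. Its p-values thus rest on a spread pooled over all intervals, not on the replicates of each interval alone. The 8 genes had 11 such intervals, 8 at the start sites and 3 away from them, of which 2 were called lower (the starts of *Mlh3* and *Prdm9*) and 3 higher (the start of *Dmc1* and 1 distal interval each of *Msh4* and *Mnd1*). The calls at the starts of *Prdm9* and *Dmc1*, not made over start sites, were each lost without PS replicate 2 (limma adjusted p = 0.0522 and 0.121), and that of *Prdm9* also without PS replicate 1 (0.0832).

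The distal interval of *Msh4*, chr3:153863453-153867290, lay 41.3 kb inside the gene. Its fold enrichment was 8.23 and 9.32 in PS and 27.7 and 22.6 in RS, a log2 difference of 1.42 (limma adjusted p = 9.44e-08) that stayed called without any 1 library. Both RS values were above both PS values, and in RS they exceeded those at the start of *Msh4* itself. At its summit the single-library intervals ran over 727 and 1133 bp in PS and over 3838 and 1377 bp in RS, so the length of RS replicate 1 was not shared by RS replicate 2. GENCODE places the starts of the non-coding transcripts Msh4-204 and Msh4-206 inside it, and the small nucleolar RNA gene *Gm24395* on the opposite strand at its summit. *Msh4* RNA summed over the gene did not pass the test in the double mutant, as given above.

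The distal interval listed for *Mnd1* that was present in all 4 libraries, chr3:84070561-84073534, lay 16.1 kb beyond the end of the gene in intergenic sequence. Its fold enrichment was 12.8 and 7.67 in PS and 22.0 and 19.2 in RS, in each library above the value of that library at the start of *Mnd1*. The log2 difference was 0.98 (limma adjusted p = 0.00021), but the call was lost without PS replicate 2 (adjusted p = 0.134), RS replicate 1 (0.0712) or RS replicate 2 (0.0516). The nearest GENCODE start, that of *Gm36981*, was 8358 bp from its summit. The remaining interval away from a start site, listed for *Mlh3*, covered the starts of *Acyp1* and *Zc2hc1c* 18.4 kb upstream of *Mlh3* and did not pass (-0.36, limma adjusted p = 0.201).

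The 300 bases around the strongest summits of these distal intervals are shown because they are where H3K27ac near *Msh4* and *Mnd1* was strongest in RS. They are chr3:153864720-153865019 and chr3:84071660-84071959 of GRCm38, on the minus strand as both genes, with capitals for the same motifs as in the promoters.
Msh4 interval: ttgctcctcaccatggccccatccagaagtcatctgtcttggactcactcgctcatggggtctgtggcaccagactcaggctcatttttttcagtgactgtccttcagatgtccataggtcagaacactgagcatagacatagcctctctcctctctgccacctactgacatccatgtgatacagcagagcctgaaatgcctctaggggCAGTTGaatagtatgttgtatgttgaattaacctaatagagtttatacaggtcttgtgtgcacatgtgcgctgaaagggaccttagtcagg
Mnd1 interval: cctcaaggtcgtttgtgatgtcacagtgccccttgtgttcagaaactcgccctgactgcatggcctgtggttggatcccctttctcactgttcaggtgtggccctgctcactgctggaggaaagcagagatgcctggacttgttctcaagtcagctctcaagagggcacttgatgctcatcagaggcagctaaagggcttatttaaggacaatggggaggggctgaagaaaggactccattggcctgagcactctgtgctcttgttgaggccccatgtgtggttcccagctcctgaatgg
The *Msh4* window held the MYB core once. A match was held by 54.5% of 38421 windows of this length around summits of merged intervals. These windows did not cover all merged intervals, of which 38435 were in at least 2 libraries. The *Mnd1* window held none of the marked motifs and CCAAT once, which 29.1% of the same windows held.

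**Figure D5:**
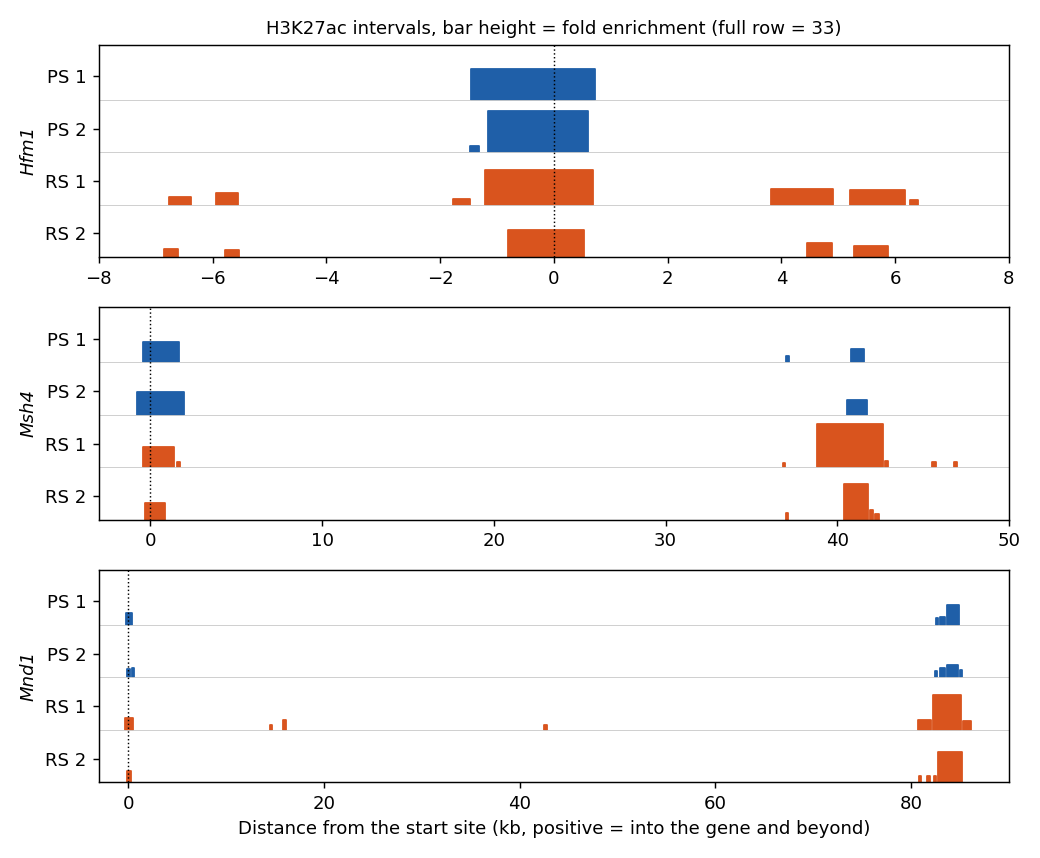
H3K27ac intervals of *Hfm1*, *Msh4* and *Mnd1* by distance from the start site (kb, positive in the direction of transcription), with a row for each wild type library, PS in blue and RS in orange, and bar height for fold enrichment. The bars 4649 and 5442 bp inside *Hfm1* occur in RS alone, and the bars 41.3 kb inside *Msh4* reach 27.7 and 22.6 in RS against 8.23 and 9.32 in PS.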

How the data were processed

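The 8 libraries (RNA of the double mutant, H3K27ac of wild type) were grouped by the sample labels. The authors amplified total RNA without marking the strand, used STAR 2.4.2a on mm10, kept unique alignments and split them among RefSeq isoforms. They deposited read counts, not normalized, and RPKM, normalized by the authors for length and library size. Isoform rows were summed per gene. H3K27ac reads were placed on mm10 by Bowtie and intervals called in each library by MACS2 2.1.0.20140616, versions being those of the submitters' processing notes. The deposited lists give the pileup signal at each summit, not scaled between libraries, the ratio or fold enrichment over 1 background per library (0.723 to 1.46 fragments, with no input), and −log10 p and q values against it. Read totals of ChIP-seq were not given, so depth is known only through background and interval number, and no errors of counting are given.

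Counts were tested with edgeR 4.0.16 (TMM, quasi-likelihood; genes with 10 counts or more in at least 2 libraries) and fold enrichment as log2(1 + fold enrichment) with limma 3.58.1, 0 where no interval lay within 2 kb, over genes with an interval in at least 2 libraries. All p-values were adjusted by Benjamini-Hochberg over all features and are two-sided. They rest on the spread between these samples, which the fits share in part across features. In the fit of merged intervals that spread was pooled over all intervals, so its p-values do not measure the spread of a single interval. DESeq2 1.42.0 and other settings are alternatives. Tests were checked on simulated data. Named genes are the 8, *Rnf8*, *Scml2*, up to 3 largest called rises and falls per role, and the 3 nearest profiles. Other genes were named after their values were seen, when a count of 5 or fewer listed them or they led some marker sums. Some genes counted in the list are not reported by name here. Members and lists were chosen with earlier results of these data known. Starts in the files lay within 27 bp of a GENCODE vM21 start for all 8 genes. Promoter sequences are from RefSeq GRCm38.p6, and the 9 windows of the 7 matched genes equalled the genome sequence.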

Additional observations from a re-analysis of the deposited data

How the results depend on the processing

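The falls of *Mlh3*, *Spo11* and *Hfm1* and the rise of *Dmc1* in RNA passed under every alternative run. The number of the 8 genes called higher in RNA, 2, became 1 with DESeq2 and with limma on log2(RPKM + 1) or log2(RPKM + 0.1), each time through *Prdm9*, and ranged from 1 to 2 without 1 library. The log2 difference of *Msh5* in RNA turned to -0.0246 with library totals only, -0.19 with the isoform row of most reads and -0.0120 and -0.0145 on the limma scales, and ranged from -0.0233 to 0.180 without 1 library. At start sites, the number called lower in H3K27ac, 1, became 0 with pileup and in a window of 5 kb and ranged from 0 to 3 without 1 library, and the number called higher, 0, became 1 with median-centred libraries. Centring turned *Spo11*, *Msh4* and *Hfm1* to 0.26, 0.19 and 0.17, and the 5 kb window turned *Msh4* to 0.0377. Without 1 library *Mnd1* ranged from -0.0118 to 0.247 and *Spo11* from -0.31 to 0.0202, at start sites and in merged intervals. In merged intervals the numbers called ranged from 1 to 3 lower and from 1 to 3 higher without 1 library. The cause was not tested. Calls over all start sites depended on single libraries: 128 to 6301 were lower without 1 library, against 1553, the highest without RS replicate 1. With pileup 564 were lower and 267 higher, against 625 higher with fold enrichment, and 1681 were higher with median-centred libraries.

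Replicate numbers are shared by PS and RS, but nothing states that they mark the same mouse, and the replicate differences of PS and RS correlated at 0.225 in RNA and 0.0069 in H3K27ac across features. With the replicate block, 3 of the 8 genes were lower and 2 higher in RNA, and 1 was lower and 0 were higher at start sites, where 882 start sites were lower and 299 higher over all. With 2 replicates per group, *Mnd1* and *Prdm9*, with under 100 reads in each library, are those whose RNA differences are least precise.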
